A study of Mus musculus with 12 samples.

Results

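Matrix metalloproteinases (MMPs) and the tissue inhibitor of metalloproteinases Timp1 were followed in RNA sequencing of mouse dermis, the collagen-rich layer below the epidermis. The genes were chosen by name, as Mmp2, Mmp3, Mmp8, Mmp9, Mmp10, Mmp11, Mmp12, Mmp13, Mmp14 and Timp1, and matched by mouse symbol to the gene identifiers of the deposited table. These are 10 of the 55401 genes in the table, and all 10 were found. A filter that kept genes with a mean of at least 1 FPKM over the 12 libraries left 14313 genes for testing, 9 of the 10 among them. FPKM counts fragments per kilobase of a transcript and relative to library size. An order of genes by FPKM depends on the length taken for each gene, which is not given in the sources used here. Mmp10 did not pass the filter. Mmp8 passed it only through the WT day 7 group, and there mainly through 1 library, so a difference of that group was a condition of its being tested.

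MMPs are zinc-dependent proteases that cut the proteins of the extracellular matrix and also growth factors, cytokines and other proteases. They are made as inactive proenzymes and become active when the propeptide is displaced or removed, and TIMPs block them by binding the active site. In skin they are known for roles in keratinocyte migration, in the entry of leukocytes and blood vessels into wounds, and in the remodelling of scar collagen, with fibroblasts, keratinocytes, macrophages and neutrophils as sources.

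The study compared C57BL/6 mice labelled as 6 weeks old, either wild type (WT) or lacking Cthrc1 (Cthrc1-/-), a gene for a secreted protein with collagen triple helix repeats, in a model with paired wounds of equal size. Dermis was taken on day 0 and day 7, which with genotype gives 4 groups of 3 biological replicates. The labels state neither how the Cthrc1-/- allele was made nor how the dermis was separated, and they do not say whether day 0 tissue was taken before wounding. Poly(A) RNA was sequenced, and the libraries had between 48329668 and 76938132 counts in genes.

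Cthrc1 itself was read at 27.0, 21.8 and 21.1 FPKM in the WT day 0 libraries, at 106, 95.5 and 74.0 FPKM in the WT day 7 libraries, and at no more than 0.151 FPKM in any Cthrc1-/- library. Fibroblast markers (Col1a1, Col1a2, Col3a1, Pdgfra, Dcn and Lum) were present in all 12 libraries, and so were Krt5 and Krt14 of basal keratinocytes at 907 FPKM or more, although the tissue is labelled as dermis. Libraries also stood apart from others of their group. In WT day 7 replicate 1, 282 tested genes were at least 3-fold above every other library, against at most 11 genes in any of the others. Inner root sheath markers of the hair follicle were 6 genes (Krt25, Krt27, Krt28, Krt71, Krt73 and Tchh). Their summed FPKM lay between 2.77 and 5.39 for WT at day 0. In the Cthrc1-/- libraries of that day it read 228, 4703 and 11420, and replicate 3 of these also had the fewest fibroblast transcripts. At day 7 it read 1663, 3911 and 3697 in WT and 3675, 504 and 5223 in Cthrc1-/-. WT day 0 was thus the group that stood apart, so in WT day and hair follicle transcripts cannot be told apart. Results that rest on WT day 7 replicate 1 or Cthrc1-/- day 0 replicate 3 are given with and without that library.

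On the GRCm38 assembly with the GENCODE M21 annotation, all members are protein-coding genes. A cluster of 5 lies together. Mmp13 (ENSMUSG00000050578, positions 7272514 to 7283331), Mmp12 (ENSMUSG00000049723, 7344381 to 7369499), Mmp3 (ENSMUSG00000043613, 7445822 to 7455975), Mmp10 (ENSMUSG00000047562, 7502352 to 7510240) and Mmp8 (ENSMUSG00000005800, 7558456 to 7568485) are on the plus strand of chromosome 9 within 296 kb. Mmp9 (ENSMUSG00000017737) lies on chromosome 2 at 164940780 to 164955850. Mmp2 (ENSMUSG00000031740) lies on chromosome 8 at 92827291 to 92853420. Mmp11 (ENSMUSG00000000901) lies on the minus strand of chromosome 10 at 75923222 to 75936496, and Mmp14 (ENSMUSG00000000957) on chromosome 14 at 54431612 to 54445364. Timp1 (ENSMUSG00000001131) lies on chromosome X at 20870166 to 20874735, inside Syn1 on the other strand, with which it shares no exon bases. Mmp11 shares 155 exon bases with Chchd10 and Mmp12 shares 157 with Mmp1b, each on the opposite strand. The libraries kept strand, but how the counting used strand is not given in the sources used here, so reads in those stretches could not be assigned with certainty. Mmp1b had at most 8 counts in any library, while Chchd10 had 637 to 1840.

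Promoter sequences are shown for the chromosome 9 cluster, in which 4 of the 5 genes hold an AP-1 motif at a start and Mmp8 does not, and for Timp1, which also does not. RefSeq promoter windows on GRCm38.p6, from 250 bases before to 50 bases after a start, were matched for 8 of the 10 members, Mmp12 with 2 starts, and not for Mmp2 and Mmp9. Each was searched on both strands for the AP-1 motif TGAGTCA (reverse complement TGACTCA), the site bound by Fos and Jun dimers. The motif was found for 4 members, Mmp3, Mmp10, Mmp13 and the downstream start of Mmp12, and for none of Mmp8, Mmp11, Mmp14, Timp1 and the upstream start of Mmp12. Among all 32851 RefSeq mouse promoter windows of this length, 5.2% hold it, and 2.3% hold it in the 120 bases before the start. Its first base lay 63 bases before the start in Mmp10, 46 in Mmp3, 44 in Mmp12 and 35 in Mmp13. The 120 bases before the start are printed for these 4 genes and, for comparison, for Mmp8 and Timp1, with the AP-1 motif in capitals.
Mmp13, chr9:7272394-7272513, + strand: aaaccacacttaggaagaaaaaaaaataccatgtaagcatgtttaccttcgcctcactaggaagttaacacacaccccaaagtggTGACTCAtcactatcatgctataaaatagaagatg
Mmp12, chr9:7347254-7347373, + strand: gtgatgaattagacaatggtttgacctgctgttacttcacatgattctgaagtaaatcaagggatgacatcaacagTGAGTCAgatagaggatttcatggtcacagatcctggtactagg
Mmp3, chr9:7445702-7445821, + strand: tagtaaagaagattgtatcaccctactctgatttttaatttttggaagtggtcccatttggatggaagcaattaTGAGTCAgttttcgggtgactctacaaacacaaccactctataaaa
Mmp10, chr9:7502222-7502341, + strand: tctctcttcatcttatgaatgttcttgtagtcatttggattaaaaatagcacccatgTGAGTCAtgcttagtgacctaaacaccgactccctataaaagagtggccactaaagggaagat
Mmp8, chr9:7558309-7558428, + strand: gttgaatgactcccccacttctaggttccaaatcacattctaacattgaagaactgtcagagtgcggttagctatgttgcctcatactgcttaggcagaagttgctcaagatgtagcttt
Timp1, chrX:20870046-20870165, + strand: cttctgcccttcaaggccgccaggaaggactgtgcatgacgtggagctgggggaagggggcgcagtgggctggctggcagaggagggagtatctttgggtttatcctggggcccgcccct
The letters TATAAA on the gene strand began 29 bases before the start in Mmp10, 16 in Mmp13 and 7 in Mmp3, and 4.19% of all windows hold them in the 120 bases before the start. In Mmp12 they began at base 5 after the downstream start, and 8.32% of the whole windows hold them. These matches describe the sequence only, and the absence of TGAGTCA from a window says nothing about which factors act on that gene.

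In WT dermis, 4 of the 9 tested members were higher on day 7 than on day 0, namely the collagenases Mmp13 and Mmp8, the gelatinase Mmp9 and the inhibitor Timp1. A member is called changed where the Benjamini-Hochberg adjusted p of edgeR's quasi-likelihood test over the 14313 genes was under 0.05. In this comparison 13.1% of all tested genes were called, 6.04% as higher. None of the 9 was called lower. Mmp8 is no independent part of this count, since a high level in WT day 7 was a condition of its being tested; without it 3 of 8 were called. DESeq2 called 2 (Mmp9 and Mmp13) and 3551 over all genes, giving no adjusted p for Mmp8 and Timp1. With limma on log2(FPKM + 1), 1 was called (Mmp13) and 1911 over all genes. A fit of only the WT groups with edgeR called 0 of the 9 members while calling 2102 genes. In Cthrc1-/- dermis, 0 of the 9 were called between day 7 and day 0 by edgeR, where 1.46% of all tested genes were called. Of the 9, 2 had an unadjusted p under 0.05, as did 2596 of the 14313 tested genes. DESeq2 called 2 (Mmp9 and Mmp13) and 1409 over all genes. The log2 change was above 0 for all 9 members tested in Cthrc1-/-, with a median of 0.76 against -0.01 over all genes tested. Without Cthrc1-/- day 0 replicate 3 it was above 0 for 8 of the 9, with a median of 0.33. The corresponding median in WT was 1.23, against 0.00 over all genes.

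Between genotypes, 0 of the 9 members were called on day 0, when 5.78% of all tested genes were called by edgeR, and 0 on day 7, when 0.0210% were. On day 0, 3 members had an unadjusted p under 0.05, as did 4068 of the 14313 tested genes. DESeq2 called 2 (Mmp3 and Mmp14) and 2787 over all genes, while limma on log2(FPKM + 1) called 0 members and 601 genes. On day 7, 2 members had an unadjusted p under 0.05, as did 782 of all tested genes. Neither DESeq2 nor limma called a member then, and over all genes they called 62 and 8. The interaction of genotype and day, which tests whether the day effect differs between the genotypes, called 0 members (0.0140% of all tested genes). Its unadjusted p was under 0.05 for 2 members and for 2164 of all tested genes. DESeq2 and limma called 0 members for it, and 681 and 4 over all genes. The comparisons draw on the same 12 libraries, so a day comparison and a genotype comparison share a group.

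**Figure D1:**
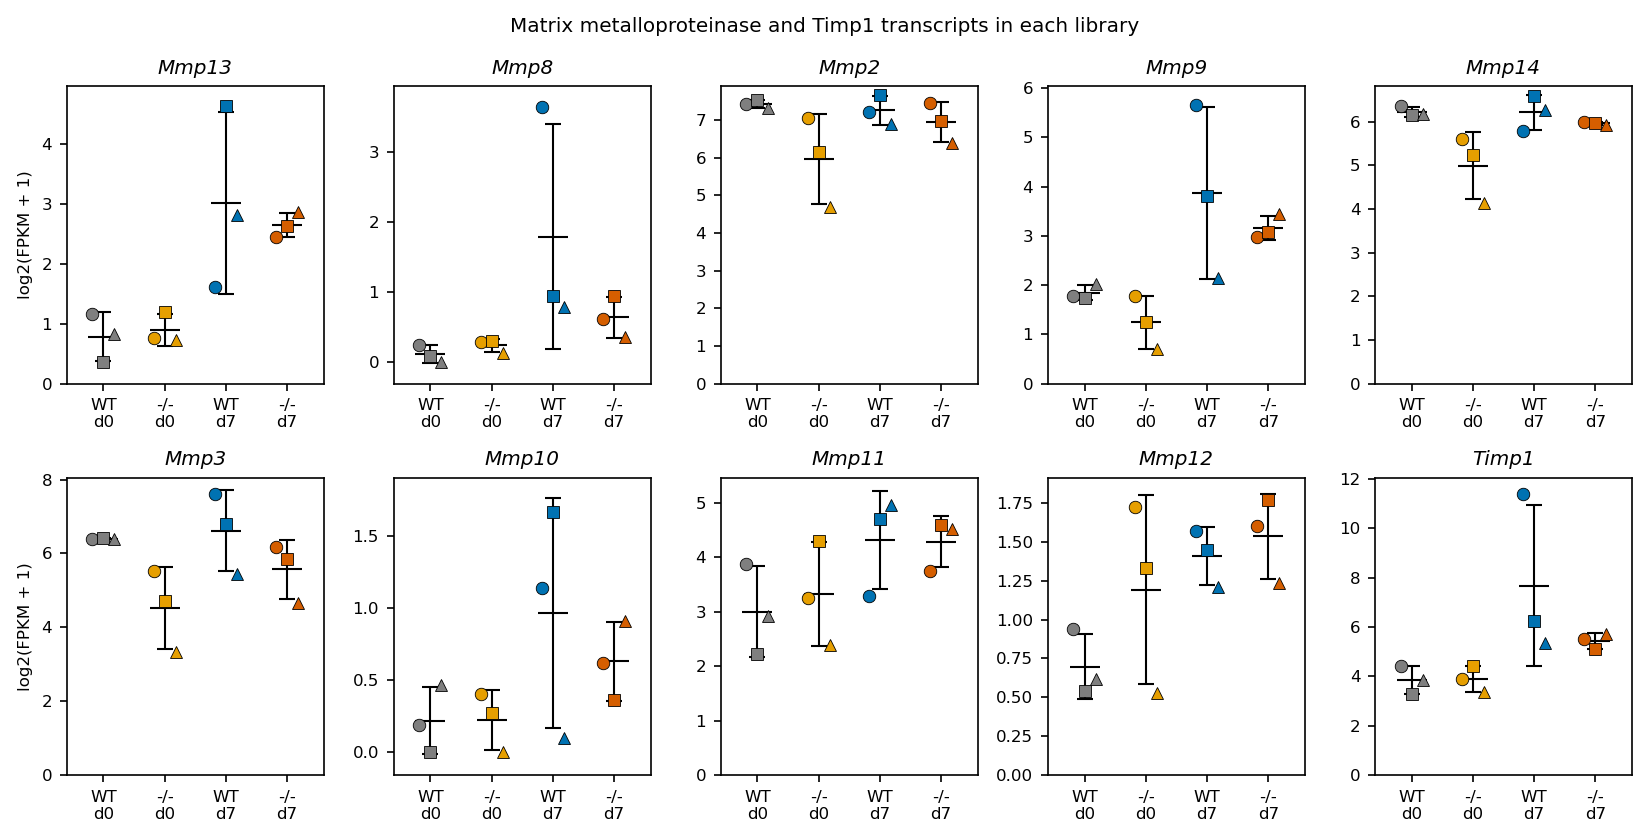
Level of each member in each library as log2(FPKM + 1), by group of genotype (WT or Cthrc1-/-, written -/-) and day (d0 or d7). Circles, squares and triangles are replicates 1, 2 and 3, and bars are the mean with the SD (n = 3). Timp1, Mmp8 and Mmp9 have their highest point in WT day 7 replicate 1, while Mmp13 has its highest in WT day 7 replicate 2.

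The collagenases cut fibrillar collagen. Mmp13, the main interstitial collagenase of rodents, was read at 1.23, 0.280 and 0.783 FPKM in the 3 WT day 0 libraries and at 2.06, 23.8 and 6.03 in the WT day 7 libraries. Every WT day 7 library was above every WT day 0 library, but WT day 7 replicate 1 was the lowest of its group. In Cthrc1-/- dermis the values were 0.686, 1.3 and 0.653 FPKM on day 0 and 4.46, 5.20 and 6.29 on day 7, again without overlap. Mmp13 rose 11.9-fold in WT, a log2 change of 3.57 (SE 0.832, edgeR adjusted p = 0.0231). In Cthrc1-/- the log2 change was 2.42 (SE 0.793), with an edgeR adjusted p of 0.144 and a DESeq2 adjusted p of 0.0164. The interaction was -1.15 (SE 1.07, edgeR adjusted p = 0.619), and 0.24 without WT day 7 replicate 2, the library with the highest Mmp13. Without that library the WT day effect was 2.18 and not called (edgeR adjusted p = 0.0592). Between genotypes the log2 change was 0.11 (SE 0.763) on day 0 and -1.04 (SE 0.755) on day 7, and the groups overlapped on both days. The day 7 value was 0.35 without WT day 7 replicate 2, so its sign rested on 1 library.

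Mmp8, the collagenase stored in neutrophil granules, was near the limit of detection on day 0. It was read at 0.186, 0.0545 and 0 FPKM in WT day 0 (27, 12 and 0 counts) and at 0.219, 0.223 and 0.0872 in Cthrc1-/- day 0. A count of 0 allows up to 3 counts, or more where counts are not separate fragments. On day 7 the WT libraries read 11.6, 0.916 and 0.719 FPKM and the Cthrc1-/- libraries 0.525, 0.919 and 0.274. All day 7 libraries were above all day 0 libraries of either genotype, and WT day 7 replicate 1 was 12.6-fold above the highest of the other 11. The log2 change in WT was 5.66 (SE 1.46, edgeR adjusted p = 0.0328), and 3.16 without WT day 7 replicate 1, where the call was lost (edgeR adjusted p = 0.0854). In Cthrc1-/- it was 1.5 (SE 1.23, edgeR adjusted p = 0.566). Between genotypes on day 7 it was -3.12 (SE 1.27, edgeR adjusted p = 0.907), and -0.53 without WT day 7 replicate 1. The interaction was -4.16 (SE 1.8, edgeR adjusted p = 0.317), and -1.62 without that library.

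The gelatinases cut denatured collagen and basement membrane collagen. Mmp2, made chiefly by fibroblasts, was the most abundant MMP in 11 of the 12 libraries, at 171, 187 and 160 FPKM in WT day 0 and 149, 203 and 118 in WT day 7. In Cthrc1-/- it was read at 132, 70.5 and 24.9 FPKM on day 0 and at 176, 126 and 83.2 on day 7. All 3 Cthrc1-/- day 0 libraries were below all 3 WT day 0 libraries, and they spread over a 5.30-fold range where WT day 0 spread over 1.17-fold. The log2 change between genotypes on day 0 was -1.25 (SE 0.524, edgeR adjusted p = 0.151), and -0.82 without Cthrc1-/- day 0 replicate 3. On day 7 the genotypes overlapped, with a log2 change of -0.36 (SE 0.517, edgeR adjusted p = 0.995). The day effect was -0.32 (SE 0.517) in WT and 0.57 (SE 0.518) in Cthrc1-/-, neither called, and the latter was 0.14 without Cthrc1-/- day 0 replicate 3.

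Mmp9, a gelatinase of neutrophils, macrophages and migrating keratinocytes, was read at 2.43, 2.32 and 3.04 FPKM in WT day 0 and at 49.2, 13.1 and 3.44 in WT day 7. The WT groups did not overlap, but the lowest day 7 library was only just above the highest day 0 library. The Cthrc1-/- values were 2.43, 1.38 and 0.622 FPKM on day 0 and 6.92, 7.41 and 9.87 on day 7, also without overlap and with a narrower day 7 range. Mmp9 rose 7.9-fold in WT, a log2 change of 2.98 (SE 0.858, edgeR adjusted p = 0.0467). Without WT day 7 replicate 1 it was 1.54 and not called (edgeR adjusted p = 0.138). In Cthrc1-/- the log2 change was 2.25 (SE 0.836), with an edgeR adjusted p of 0.191 and a DESeq2 adjusted p of 0.0367, and without WT day 7 replicate 1 in the shared fit it was 2.31 and called (edgeR adjusted p = 0.0457). The interaction was -0.73 (SE 1.13, edgeR adjusted p = 0.777), and 0.77 without WT day 7 replicate 1. On day 7 the genotypes overlapped, with a log2 change of -1.61 (SE 0.815, edgeR adjusted p = 0.931), and of -0.08 without that library.

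Mmp14, the membrane-type MMP that activates pro-Mmp2 at the cell surface, was read at 81.2, 70.1 and 71.1 FPKM in WT day 0 and at 47.6, 37.0 and 16.5 in Cthrc1-/- day 0. All Cthrc1-/- day 0 libraries were below all WT day 0 libraries. On day 7 it was read at 53.9, 95.0 and 76.5 FPKM in WT and at 62.3, 61.9 and 59.7 in Cthrc1-/-, where the 3 libraries lay close together inside the WT range. Its log2 change between genotypes on day 0 was -1.22 (SE 0.343, edgeR adjusted p = 0.0636), just short of the threshold, with a DESeq2 adjusted p of 0.00768. Without Cthrc1-/- day 0 replicate 3 it was -0.86 (edgeR adjusted p = 0.0646). Without WT day 7 replicate 1 in the shared fit it was -1.18 and called (edgeR adjusted p = 0.0474). The Cthrc1-/- day 7 libraries were all above the Cthrc1-/- day 0 libraries, with a log2 change of 0.68 (SE 0.340, edgeR adjusted p = 0.321), and of 0.33 without Cthrc1-/- day 0 replicate 3. In WT it was -0.18 (SE 0.338), but 0.03 with total-count scaling and 0.07 without WT day 7 replicate 1.

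The stromelysins cut proteoglycans and other non-fibrillar matrix and activate procollagenases. Mmp3 (stromelysin-1) was nearly constant in WT day 0, at 83.0, 84.1 and 82.8 FPKM, and was read at 44.8, 25.3 and 9.14 in Cthrc1-/- day 0. The 2 groups did not overlap. The day 7 libraries read 193, 110 and 42.3 FPKM in WT and 71.3, 57.0 and 24.5 in Cthrc1-/-, with overlap between the genotypes and, in WT, with day 0. The log2 change between genotypes on day 0 was -1.73 (SE 0.683, edgeR adjusted p = 0.134, DESeq2 adjusted p = 0.0455), and -1.3 without Cthrc1-/- day 0 replicate 3. On day 7 it was -1.31 (SE 0.675, edgeR adjusted p = 0.931), and -0.62 without WT day 7 replicate 1. The day effect in WT was 0.34 (SE 0.665), and -0.26 without that library, so its sign rested on 1 library.

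Mmp10 (stromelysin-2), known from keratinocytes at wound edges, was the lowest or next to lowest member in every group. It was read at 0.140, 0 and 0.380 FPKM in WT day 0, at 0.323, 0.206 and 0 in Cthrc1-/- day 0, at 1.20, 2.17 and 0.0715 in WT day 7, and at 0.534, 0.285 and 0.881 in Cthrc1-/- day 7. The WT day 7 libraries spanned 30.3-fold, from 9 to 285 counts, and in each genotype day 7 overlapped day 0. In a fit with no filter on low genes, its log2 change from day 0 to day 7 was 2.55 (SE 1.5, edgeR adjusted p = 0.386) in WT and 1.44 (SE 1.45, edgeR adjusted p = 0.727) in Cthrc1-/-. Mmp11 (stromelysin-3), a stromal MMP activated inside the cell by furin, was read at 13.7, 3.65 and 6.56 FPKM in WT day 0 and at 8.72, 25.1 and 30.1 in WT day 7. The Cthrc1-/- libraries read 8.59, 18.7 and 4.24 on day 0 and 12.4, 23.2 and 21.9 on day 7. Days overlapped in both genotypes, with log2 changes of 1.19 (SE 0.637, edgeR adjusted p = 0.223) in WT and 0.69 (SE 0.631, edgeR adjusted p = 0.612) in Cthrc1-/-, the latter 0.29 without Cthrc1-/- day 0 replicate 3.

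Mmp12, the macrophage metalloelastase, was low in FPKM throughout, at 0.916, 0.453 and 0.532 FPKM in WT day 0 and 1.97, 1.73 and 1.31 in WT day 7. The WT groups did not overlap, but the log2 change of 1.23 (SE 0.547) was not called (edgeR adjusted p = 0.15), and it was called only without Cthrc1-/- day 0 replicate 3 among the fits that left out 1 library (edgeR adjusted p = 0.0388). In Cthrc1-/- it was read at 2.30, 1.52 and 0.439 FPKM on day 0 and 2.04, 2.41 and 1.35 on day 7. These overlapped, with a log2 change of 0.26 (SE 0.537, edgeR adjusted p = 0.848), and of -0.19 without Cthrc1-/- day 0 replicate 3. Between genotypes on day 0 the log2 change was 1.09 (SE 0.545, edgeR adjusted p = 0.216). It was 1.57 and called (edgeR adjusted p = 0.0442) with both WT day 7 replicate 1 and Cthrc1-/- day 0 replicate 3 left out. With only the first or only the second left out it was not called (edgeR adjusted p = 0.173 and 0.0782). Without Cthrc1-/- day 0 replicate 1 it was 0.52.

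Timp1, a secreted inhibitor of most MMPs, was read at 20.2, 8.70 and 13.3 FPKM in WT day 0 and at 13.7, 20.1 and 9.21 in Cthrc1-/- day 0. On day 7 the WT libraries read 2721, 75.7 and 39.7 FPKM and the Cthrc1-/- libraries 44.5, 33.2 and 51.2. All 6 day 7 libraries were above all 6 day 0 libraries, and the genotypes overlapped on both days. The 2721 FPKM of WT day 7 replicate 1 was 36.0-fold above the highest of the other 11 libraries, a ratio that 15 of the tested genes exceeded, and made Timp1 the gene of rank 14 of 14313 in that library. Timp1 rose in WT by a log2 change of 6.02 (SE 1.5, edgeR adjusted p = 0.0295). Without that library the log2 change was 1.9 and still called (edgeR adjusted p = 0.0316). In Cthrc1-/- it was 1.41 (SE 1.23, edgeR adjusted p = 0.592), and 1.46 without WT day 7 replicate 1 in the shared fit (edgeR adjusted p = 0.064). The log2 change between genotypes on day 7 was -4.67 (SE 1.41, edgeR adjusted p = 0.907), and -0.46 without that library. The interaction was -4.61 (SE 1.79, edgeR adjusted p = 0.279), and -0.44 without it.

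**Figure D2:**
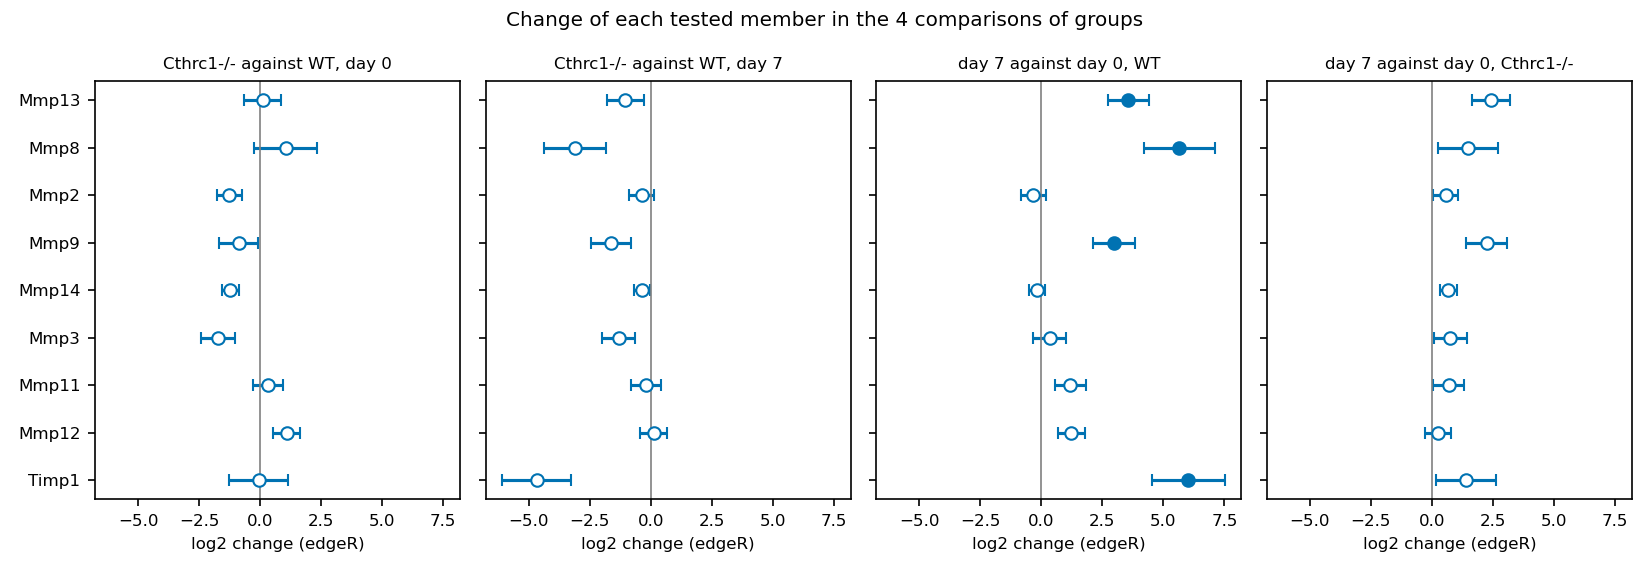
Log2 change with its SE from edgeR for the 9 tested members in the 4 comparisons of groups. Filled points are called (adjusted p under 0.05) and open points are not. Filled points appear for Mmp13, Mmp8, Mmp9 and Timp1 in WT only, and the Cthrc1-/- points for the same comparison lie above 0 without being called.

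How far the 4 WT calls rest on single libraries was examined by leaving out each of the 12 libraries in turn. Timp1 was called in 9 of the 12 fits, Mmp13 in 8, Mmp8 in 7 and Mmp9 in 3. Leaving out any one of the 3 WT day 0 libraries left 0 members called, with edgeR adjusted p up to 0.106 for Timp1. Leaving out WT day 7 replicate 1 left 2 (Mmp13 and Timp1), and leaving out WT day 7 replicate 2 or Cthrc1-/- day 7 replicate 1 also left 2. Leaving out Cthrc1-/- day 0 replicate 3 gave 5, with Mmp12 added. The direction stayed the same for these 4 members in all 12 fits, with a log2 change of 1.9 to 6.59 for Timp1, 3.16 to 7.01 for Mmp8, 1.54 to 3.50 for Mmp9 and 2.18 to 4.16 for Mmp13.

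**Figure D3:**
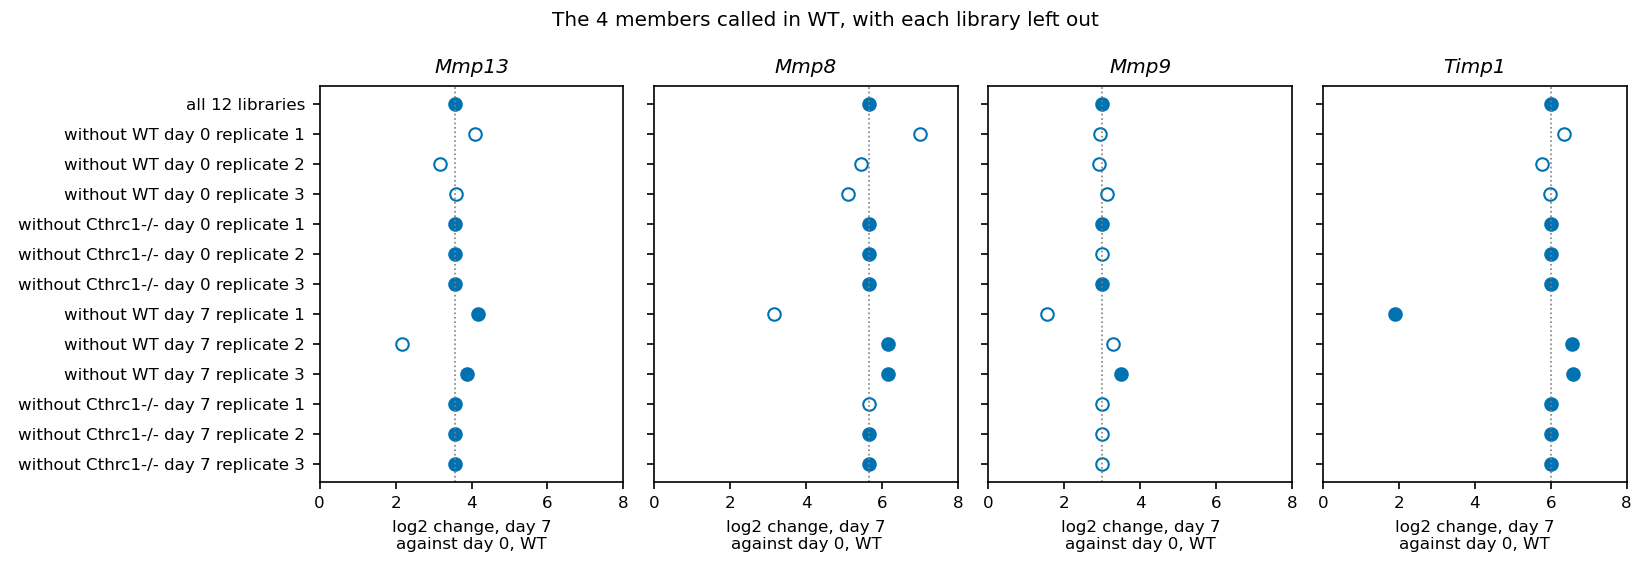
Log2 change from day 0 to day 7 in WT for the 4 called members, with all 12 libraries and with each left out in turn. Filled points are called at an edgeR adjusted p under 0.05, and the dotted line marks the value from all libraries. Without WT day 7 replicate 1, Timp1 is at 1.9 in place of 6.02 and Mmp8 at 3.16 in place of 5.66, while Mmp13 is at 4.16.

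Groups without overlap were counted in the same libraries, so they give no separate support for the calls. In WT, 5 of the 9 members were higher in every day 7 library than in every day 0 library (Mmp8, Mmp9, Mmp12, Mmp13 and Timp1), as were 29.8% of all tested genes. Mmp8 is again no independent part of this count, since a high level in WT day 7 was a condition of its being tested. In Cthrc1-/-, 5 were (Mmp8, Mmp9, Mmp13, Mmp14 and Timp1), as were 21.5% of all tested genes. On day 0, 3 members were lower in every Cthrc1-/- library than in every WT library (Mmp2, Mmp3 and Mmp14), as were 19.8% of all tested genes. On day 7 no member separated the genotypes, while 9.13% of all tested genes did in one direction or the other.

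On the FPKM scale, which is per length, the members fell into an abundant and a scarce set. In WT day 0 the mean level was 172.5 ± 13.5 FPKM for Mmp2, 83.3 ± 0.718 for Mmp3 and 74.1 ± 6.10 for Mmp14 (SD, n = 3), followed by Timp1 at 14.1 ± 5.78, Mmp11 at 7.96 ± 5.17 and Mmp9 at 2.60 ± 0.387. Mmp13, Mmp12, Mmp10 and Mmp8 were each below 1 FPKM on average. Mmp2 also led by mean in both Cthrc1-/- groups, where Mmp14 ranked above Mmp3, and in WT day 7 Timp1 came first through replicate 1. Of neighbours in this order, Timp1 and Mmp11 overlapped, as did Mmp13 and Mmp12, and Mmp10 and Mmp8. In counts Mmp12 was above Mmp13 in WT day 0, at 389, 282 and 209 against 193, 64 and 113. The order of these 2 genes thus depended on the length used for FPKM. Mmp2, Mmp3 and Mmp14 together held 80.5% to 98.1% of the summed FPKM of the 9 MMPs in each library. That sum lay between 325 and 354 FPKM for WT at day 0, and the Cthrc1-/- libraries of that day read 239, 156 and 56.6. At day 7 the WT libraries read 471, 475 and 278 and the Cthrc1-/- libraries 337, 285 and 208. The ratio of Timp1 to this sum lay between 0.0250 and 0.0570 for WT and between 0.0572 and 0.163 for Cthrc1-/- at day 0. On day 7 it was 5.78, 0.159 and 0.143 in WT and 0.117 to 0.246 in Cthrc1-/-. Outside WT day 7 replicate 1 the MMP sum was above the level of Timp1 in each library.

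On day 0, Mmp2, Mmp3 and Mmp14 varied together with fibroblast transcripts. The summed FPKM of the 6 fibroblast markers was between 4814 and 6441 for WT at day 0 and read 2386, 1296 and 337 in the Cthrc1-/- libraries of that day. At day 7 it lay between 3521 and 5251 for WT and between 2193 and 3447 for Cthrc1-/-. The inner root sheath markers ran the other way on day 0, as given above. Set against the sum of Pdgfra, Dcn and Lum, which excludes the collagens, Mmp2 at day 0 stood at 26.3% to 30.2% for WT and at 31.1% to 33.5% for Cthrc1-/-. In the same order Mmp3 stood at 12.7% to 14.4% and at 11.4% to 11.5%, and Mmp14 at 11.4% to 12.5% and at 12.1%, 16.8% and 20.6%. Against the sum of all 6 markers, which the collagens dominate, Mmp2 at day 0 stood at 2.9% to 3.31% for WT and at 5.44% to 7.39% for Cthrc1-/-, and Mmp14 at 1.09% to 1.48% and at 2% to 4.89%. Mmp3 stood at 1.31% to 1.72% and at 1.88% to 2.71%, so its direction between the genotypes depended on which markers it was set against. In bulk tissue, fewer cells of a type and less RNA per cell cannot be told apart. With the hair follicle score as a covariate, 0 members were called in any comparison, but that score differs so much between WT day 0 and the other groups that the 2 cannot be told apart.

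Mmp8, Mmp9 and Timp1 were highest in WT day 7 replicate 1, the library with the most neutrophil and macrophage marker transcripts. T cell markers (Cd3e, Cd3g, Cd3d, Trbc1 and Trbc2) were lowest there, with a sum of 21.9 FPKM against 23.2 to 52.4 elsewhere. The summed FPKM of 7 neutrophil markers (S100a8, S100a9, Csf3r, Cxcr2, Ly6g, Retnlg and Stfa2l1) lay between 6.25 and 12 for WT and between 22.6 and 88.5 for Cthrc1-/- at day 0. At day 7 the WT libraries read 5211, 743 and 39.4, and the Cthrc1-/- libraries lay between 384 and 1161. Ly6g, a defining neutrophil marker, was at 0 in all 6 day 0 libraries and at 19.6 FPKM in WT day 7 replicate 1. In the other 5 day 7 libraries Ly6g was at most 0.101 FPKM and Csf3r read 1.46 to 4.18, while S100a9 read 24.0 to 750. S100a8 and S100a9, which are also made by keratinocytes, made up most of the neutrophil sum in each library. Outside WT day 7 replicate 1 that sum is therefore no clear measure of neutrophils. The 7 macrophage markers (Adgre1, Cd68, Csf1r, Mrc1, Lyz2, Itgam and Cd163) summed to between 247 and 263 FPKM for WT and between 70.9 and 185 for Cthrc1-/- at day 0. At day 7 they summed to 1093, 592 and 290 in the WT libraries and to between 379 and 397 for Cthrc1-/-. Per macrophage marker sum, Timp1 stood at 249% in WT day 7 replicate 1 and at 8.59% to 13.7% in the other 5 day 7 libraries, and per neutrophil marker sum it stood at 52.2% there and at 3.83% to 101% in those 5. The same library had the fewest basal keratinocyte transcripts, 2203 FPKM for 6 markers against 4057 to 9038 elsewhere. The part of these cells in the Timp1, Mmp8 and Mmp9 values was not tested.

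**Figure D4:**
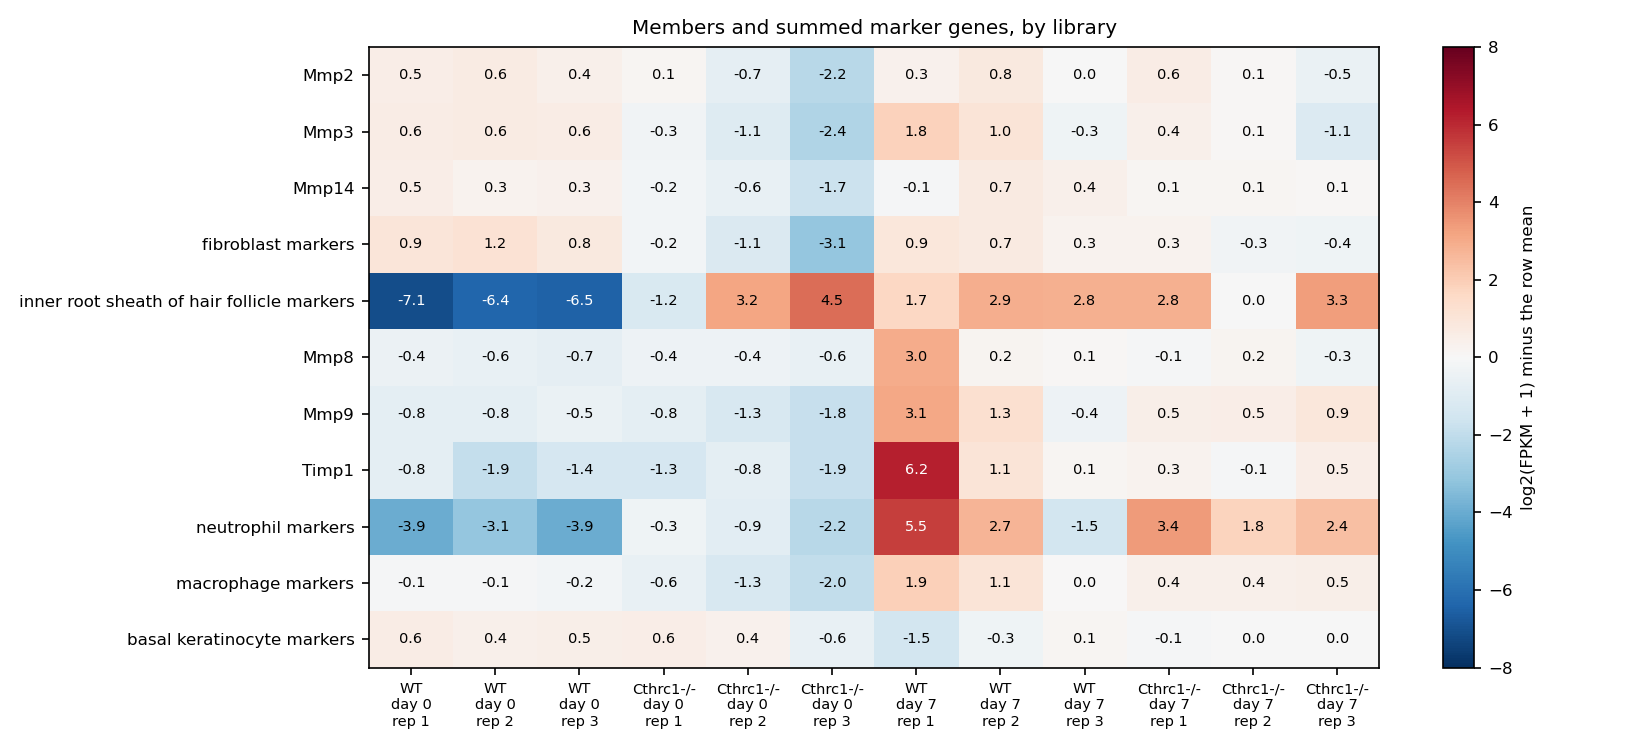
Log2(FPKM + 1) of 6 members and of the summed FPKM of 5 marker lists in each library, minus the mean of the row over the 12 libraries. The first 4 rows are lowest in Cthrc1-/- day 0 replicate 3 (-2.21 for Mmp2, -2.43 for Mmp3), and Mmp8, Mmp9, Timp1 and the neutrophil and macrophage markers are highest in WT day 7 replicate 1.

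Correlations across libraries were read for pairs of members. They share the 12 libraries and the 4 groups, so they carry no test. Over the 12 libraries, Pearson's r of log2(FPKM + 1) was 0.896 between Mmp2 and Mmp3 and 0.911 between Mmp2 and Mmp14. For Mmp8 and Timp1 it was 0.966, and 0.815 over the 11 libraries without WT day 7 replicate 1. Mmp13 and Timp1 correlated at 0.369 over 12 libraries and at 0.955 over those 11, and Mmp11 and Timp1 at 0.239 and 0.868. Mmp9 and Timp1 correlated at 0.916 and 0.865. Outside WT day 7 replicate 1, Timp1 thus had its highest r among the members with Mmp13, over libraries of both days.

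Among non-member genes with a mean of at least 5 FPKM, the 2 with the highest r over 12 libraries were named for each member. For Mmp2 these were Dpt (0.985) and Aebp1 (0.976), for Mmp3 Abi3bp (0.99) and Cd302 (0.987), and for Mmp14 Olfml2b (0.98) and Lum (0.978), several of them genes of the extracellular matrix. For Mmp8 they were Cxcr2, a neutrophil chemokine receptor (0.981, and 0.839 without WT day 7 replicate 1), and Acod1 (0.979, and 0.803). For Mmp9 they were Wfdc17 (0.99) and Lyn (0.985), and for Mmp12 Zc3h12a (0.917) is given. For Mmp13 they were Spon1 (0.968) and Cdh11 (0.948), for Mmp11 Mfge8 (0.901) and Fto (0.881), and for Mmp10 Ak1 (0.86) and Slc25a4 (0.858). Timp1 was most like P4hb (0.99, and 0.952 without that library) and Clec4d (0.988, and 0.943).

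The wider protease system was read through 7 lists with 94 genes, of which 76 were tested. From day 0 to day 7 in WT, 12 of the 76 rose and 7 fell, against 13.1% of all tested genes called. In the ADAM and ADAMTS list 4 of 17 rose, among them Adam12, a membrane metalloproteinase of activated mesenchymal cells, from 1.62 ± 1.04 to 13.3 ± 4.39 FPKM (n = 3; log2 change 2.88, SE 0.519, edgeR adjusted p = 0.00955). The list of other inhibitors also holds the matrix genes Sparc, Pcolce and Pcolce2, so its counts are not of inhibitors alone. In it 1 of 8 rose, the serine protease inhibitor Tfpi2 (log2 change 2.72, SE 0.539, edgeR adjusted p = 0.0133). In the same list 3 fell, among them Timp3 and Spock2. The largest fall was that of Pcolce2, a procollagen C-proteinase enhancer, at -2.50 (SE 0.622, edgeR adjusted p = 0.0294). Of 10 plasminogen activation genes, 2 rose, Serpine2 and the tissue plasminogen activator Plat (log2 change 1.85, SE 0.406, edgeR adjusted p = 0.0190). Of 13 inducers, cofactors and activating proteases, only the proprotein convertase Pcsk5 was called (log2 change 3.13, SE 0.851, edgeR adjusted p = 0.0390). The lysosomal proteases Ctsb and Lgmn rose among 10 genes of intracellular collagen turnover, Lgmn with a log2 change of 1.75 (SE 0.474, edgeR adjusted p = 0.0386). None of the 6 tested other MMPs was called. Without WT day 7 replicate 1 the calls of Lgmn (log2 change 1.03), Pcsk5 (1.45), Pcolce2 (-2.27), Spock2 (-1.19) and Adam10 (0.5) were lost. Adam12 was called whichever of the 12 libraries was left out, while Timp3 was called in 5 of those fits and Ctsb in 6.

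Fos and Jun proteins bind the AP-1 motif marked above, and the list of AP-1 and ETS factors moved in both directions in WT: 2 of 12 rose and 4 fell. Runx2, a regulator of Mmp13 in skeletal cells, rose from 0.842 ± 0.123 to 2.53 ± 0.383 FPKM (n = 3; log2 change 1.41, SE 0.215, edgeR adjusted p = 0.00616), and the ETS factor Etv4 rose too. Fosb fell from 213 ± 13.3 to 50.8 ± 12.4 FPKM (n = 3; log2 change -2.26, SE 0.522, edgeR adjusted p = 0.0225), with Fos, Jun and Jund also lower. Without WT day 7 replicate 1 Fosb was at -2.21 and not called (edgeR adjusted p = 0.0562). In WT, Runx2 and Jund were called whichever library was left out, and Etv4 in 5 of the 12 such fits. In Cthrc1-/- 1 of 12 was called, Jund, with a log2 change of -1.39 (SE 0.208, edgeR adjusted p = 0.0216). In Cthrc1-/- dermis 3 of the 76 genes were called between days (1.46% of all tested genes). Adam12 rose with a log2 change of 3.29 (SE 0.530, edgeR adjusted p = 0.0235), Adamts12 rose, and Jund fell. Of the 12 fits that left out 1 library, 8 called Adam12 in Cthrc1-/-, 8 called Jund and 4 called Adamts12.

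Between genotypes on day 0, 6 of the 76 genes were called, all lower in Cthrc1-/-, against 5.78% of all tested genes called. Among the other MMPs, 2 of 6 were lower, Mmp17 and the stromal Mmp23, which was 16.6 ± 0.312 FPKM in WT and 5.58 ± 3.51 in Cthrc1-/- (n = 3; log2 change -1.64, SE 0.418, edgeR adjusted p = 0.0495). The collagen-binding matricellular gene Sparc was lower by -2.11 on the log2 scale (SE 0.478, edgeR adjusted p = 0.0400), the procollagen N-propeptidase Adamts14 by -2.40 (SE 0.528, edgeR adjusted p = 0.0373) and the collagen endocytosis receptor Mrc2 by -1.58 (SE 0.386, edgeR adjusted p = 0.0454), and Adamts12 was called as well. Without Cthrc1-/- day 0 replicate 3 the calls of Mmp17 (log2 change -0.98), Mmp23 (-1.25), Mrc2 (-1.22) and Adamts12 (-1.27) were lost, and those of Sparc and Adamts14 were not. Each of the 6 calls was made in only 2 to 4 of the 12 fits that left out 1 library. Fibroblast marker sums moved with these genes, as given above, and the part of fibroblast content in them was not tested. Medians over a list on day 0 were -1.41 for the other MMPs, -1.18 for the list of other inhibitors and -0.95 for the ADAM and ADAMTS list. The remaining lists were nearer to the median of -0.05 over all genes tested. Plasminogen activation stood at -0.449, and inducers, cofactors and activating proteases at 0.002. AP-1 and ETS factors stood at -0.205 and intracellular collagen turnover at -0.218.

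On day 7 none of the 76 genes was called between genotypes, and none was called for the interaction. Between genotypes on that day 10 had an unadjusted p under 0.05 (1 without WT day 7 replicate 1), as did 782 of the 14313 tested genes. Adam8, a leukocyte metalloproteinase, was read at 115 FPKM in WT day 7 replicate 1 and at 1.35 to 7.77 in the other 11 libraries, with a log2 change of -3.11 (SE 1.07, edgeR adjusted p = 0.907). Leaving WT day 7 replicate 1 out of the shared fit changed the lists' day 0 counts to 3 higher and 10 lower, the WT day counts to 9 higher and 8 lower, and the Cthrc1-/- day counts to 10 higher and 3 lower. Leaving out Cthrc1-/- day 0 replicate 3 as well gave 4 higher and 6 lower, 14 higher and 17 lower, and 9 higher and 16 lower in the same order.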

How the data were processed

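The deposited table holds, for each gene and library, a whole-number count and an FPKM value, both made by the authors. Per the submitters' processing notes, the tools used were cutadapt 1.9, HISAT2 2.0.4, UMI-tools, StringTie 1.3.4d, DESeq2 and edgeR on GRCm38; the annotation used, and whether counts were collapsed on molecular identifiers, are not given in the sources used here. Every gene with a count of 0 carries an FPKM of 0.0001 in the deposited table, read here as 0. Deposited counts at multiples of 4 were overrepresented, so a low count is not 1 fragment, and division by 4 was an alternative. Symbols were matched for 55141 of 55401 gene identifiers. Total counts ranged from 48329668 to 76938132 per library. A count of 0 would allow up to 3 counts, for counting error only, if each count were a separate fragment. Since low counts here are not, the limit is wider.

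Counts were tested with edgeR 4.0.16 in R 4.3.3 (quasi-likelihood, two-sided, TMM scaling) in one fit of all 12 libraries with a mean for each group, over the 14313 genes whose FPKM averaged 1 or more, with Benjamini-Hochberg adjustment across them. Each SE was derived from edgeR's F statistic (size of the log2 change over the root of F). Alternatives used DESeq2 1.42.0, limma 3.58.1, other scalings, filters and sets of libraries. The procedure was tested on simulated data in which all genes had the same spread setting and no library stood apart. That test cannot show how the calls hold with a library such as WT day 7 replicate 1.

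All 10 members were to be named in each comparison, but not every value of each member is printed. From each of the 7 protease lists, the called gene with the largest rise and the one with the largest fall were named, or the gene with the smallest p where none was called; other called genes were named after their values were seen. Genes that these rules name but the text leaves out are not reported here. The members and lists were chosen with earlier results of these data known. Replicate numbers recur in all groups, but same-numbered libraries did not deviate together, so they were not treated as pairs. The labels call the samples biological replicates without saying which animals or wounds they came from.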

Additional observations from a re-analysis of the deposited data

How the results depend on the processing

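With 3 libraries in a group, the number of members called depended on the analysis. Leaving out 1 library in turn gave 0 to 2 members called between genotypes on day 0, 0 to 0 on day 7, 0 to 5 between days in WT (4 as reported), 0 to 1 in Cthrc1-/- and 0 to 0 for the interaction. DESeq2 called 2 on day 0, 2 in WT and 2 in Cthrc1-/-, with 2787, 3551 and 1409 called over all genes. It gave no adjusted p for Mmp8 and Timp1 in any comparison. In WT, limma on log2(FPKM + 1) called 1 and with a pseudocount of 0.1 called 2, while the hair follicle score as a covariate and a fit of only the groups compared each called 0. With both WT day 7 replicate 1 and Cthrc1-/- day 0 replicate 3 left out, an alternative chosen after seeing the data, 2 members were called on day 0 and 2 in WT. Replicate numbers did not pair the libraries, since only 2 of 12 same-numbered correlations of deviations passed 0.1 (range -0.232 to 0.426). With the replicate block, 1 member was called on day 0 (Mmp3, -2.15, edgeR adjusted p = 0.0446) and 1 in WT (Mmp8), so that Mmp9, Mmp13 and Timp1 lost their calls.

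Over all genes, 827 were called on day 0 (0 to 2787 over the alternatives), 3 on day 7 (0 to 62), 1880 in WT (0 to 3551), 209 in Cthrc1-/- (5 to 1651) and 2 for the interaction (0 to 681). Total-count scaling raised the median of all genes by 0.20 (log2) in WT and 0.17 in Cthrc1-/- and moved the share of calls that were higher from 46.0% to 75.5% and from 58.9% to 86.9%; on day 0 it went from 60.8% to 71.4%. It changed no call of a member. Of 971 single member values under 22 alternatives, 919 kept their side of the threshold, 40 lost a call, 12 gained one and 0 of the called ones changed sign; 42 uncalled values changed sign.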
